A study of Rattus norvegicus with 15 samples.

Results

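Monoubiquitin on histone H2B is laid down by the ligase pair Rnf20 and Rnf40 during transcription and is taken off again by deubiquitinases. Transcripts of 9 genes that act after the mark is laid were followed in dorsal CA1 of the rat hippocampus. They encode the deubiquitinase module of the SAGA coactivator (Usp22, Atxn7, Atxn7l3 and Eny2), 3 further histone deubiquitinases (Usp49, Usp3 and Usp16) and both subunits of the histone chaperone FACT (Ssrp1 and Supt16h). The genes were chosen by symbol as a functional group. All 9 were found among the 22314 genes of the deposited count table, and all 9 were among the 14880 genes with enough reads to test.

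The 15 libraries came from wild-type male Sprague-Dawley rats aged 8 to 9 weeks, and every rat had siRNA injected into dorsal CA1 of the hippocampus. They formed 3 groups of 5: scrambled siRNA without training (naive), scrambled siRNA with contextual fear conditioning (scrambled trained) and Rnf20 siRNA with contextual fear conditioning (Rnf20-labelled). Training, in which an animal learns to link a place to a shock, followed the injection by 5 days. The time from training to dissection is not given in the sources used here, and a naive group with Rnf20 siRNA was not analysed here. The tissue was frozen CA1 with all its cell types, so fewer cells of a type and less RNA per cell cannot be told apart. The labels number the libraries without saying that each is a separate animal, so a p-value speaks of the spread among libraries, which may be technical in part.

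In the cell, RNF20 and RNF40 attach the ubiquitin together with RNA polymerase II and the PAF1 complex, and the marked H2B helps FACT to open and rebuild nucleosomes as the polymerase passes. USP22 is the catalytic subunit of the SAGA module. It is inactive alone and needs ATXN7L3 and ENY2, while ATXN7 anchors the module to the rest of SAGA. USP49 and USP3 also remove ubiquitin from H2B, USP3 from H2A too, and USP16 is best known as an H2A deubiquitinase. In neurons, H2B ubiquitination has been linked to memory formation, and the enzymes that erase it set how long the mark lasts.

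The stretches upstream of Usp22 and Atxn7l3 are shown because the enzyme and its adaptor belong to 1 module. As described further on, their levels had a correlation of r = 0.13 between libraries, though both followed the main axis of the data. Whether the letters bear on the levels was not tested. Each is the 250 bases before the first annotated start of the gene in RefSeq on GRCr8, a later rat assembly than the one used for counting, and is written on the gene's strand. Usp22 lies on the minus strand at chr10:46354940-46355189 and Atxn7l3 on the minus strand at chr10:87750248-87750497. Capitals mark matches, on either strand, to the GC box GGGCGG, the CCAAT box CCAAT, the ETS core CGGAAG and the cAMP response element TGACGT, and 2 GC boxes of Usp22 overlap.
Usp22: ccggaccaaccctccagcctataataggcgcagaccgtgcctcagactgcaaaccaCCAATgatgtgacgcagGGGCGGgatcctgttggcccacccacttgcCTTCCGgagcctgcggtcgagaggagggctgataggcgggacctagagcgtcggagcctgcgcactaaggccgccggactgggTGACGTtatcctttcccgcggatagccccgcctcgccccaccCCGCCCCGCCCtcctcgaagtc
Atxn7l3: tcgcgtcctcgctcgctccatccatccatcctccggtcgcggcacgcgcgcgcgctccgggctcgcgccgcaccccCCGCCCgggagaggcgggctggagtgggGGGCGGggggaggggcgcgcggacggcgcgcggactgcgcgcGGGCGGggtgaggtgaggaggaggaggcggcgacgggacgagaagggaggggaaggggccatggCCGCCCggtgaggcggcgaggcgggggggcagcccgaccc

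The Usp22 stretch held 3 GC boxes and 1 match to each of the other 3 motifs, and the Atxn7l3 stretch held 4 GC boxes and no match to the others. Of 33469 rat windows of the same length, 30.5% held a GC box, 34.0% a CCAAT box, 13.9% an ETS core and 6.95% a cAMP response element. GC content was 66.4% for Usp22 and 80.8% for Atxn7l3. These values are for the first start of each gene. For Atxn7l3 5 windows were listed, against 1 for Usp22. The windows at the later Atxn7l3 starts held 2, 2, 0 and 0 GC boxes. Of these, the window with a GC content of 59.6% held 1 ETS core. The contrast between the 2 genes therefore describes the first starts only. A match describes these letters only. Windows were listed for 6 of the 9 genes, and the listed starts of Usp16 and Ssrp1 are not at the outer boundary of the gene. The Usp3 window also held 4 GC boxes, with 2 ETS cores, and the Atxn7 window held 1 GC box. Their GC content was 71.2% and 79.2%. The windows of Usp16 and Ssrp1 held 0 GC boxes. The shares over all rat windows were not matched for GC content.

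Total counts were 12537250 to 20644425 per library, and mitochondrially encoded transcripts took 8.47% to 13.3% of them. Rnf20 itself, which checks the siRNA label, was at 41.8 ± 2.28, 43.2 ± 5.39 and 42.0 ± 2.32 CPM (counts scaled to equal library totals, SD, n = 5 each) in the naive, scrambled trained and Rnf20-labelled libraries, and the log2 fold change between the trained groups was -0.04 (SE 0.08, adjusted p = 0.945, 95% interval -13.9% to 9.73%). All 5 Rnf20-labelled libraries, at most 44.6 CPM, lay below the scrambled trained median of 46.2 CPM, while 4 of 5 lay above the naive median of 41.6 CPM. The groups overlapped, and no difference in the target transcript passed the test. For that reason the group is named by its label throughout. Of 7 CA1 neuron markers, 6 were tested and 1, Fibcd1, was not in the table. Their summed level was 296 to 1630 CPM over all libraries, lowest in scrambled trained replicate 10. Along the first principal component, with 35.7% of the variance, scrambled trained replicates 10 and 15 and Rnf20-labelled replicates 14 and 18 lay farthest out (53.5, 41.0, -49.3 and 45.0), and fold changes without these 4 are given beside those of all 15. All 4 are trained libraries, so the trained groups are smaller in fits without them. A p-value can rise in such a fit with little change in the fold change.

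None of the 9 genes passed the threshold of an adjusted p under 0.05 in any comparison, and the same was true of all 14880 genes. With edgeR's quasi-likelihood test, 0 genes (0%) were called between scrambled trained and naive libraries, between the trained groups, and between Rnf20-labelled and naive libraries. At an unadjusted p under 0.05 there were 1484, 835 and 342 genes in that order (9.97%, 5.61% and 2.3%). DESeq2 called 58, 1 and 1 genes and limma-voom 0, 0 and 0, with 0 of the 9 genes among them by either tool. Of the 9 genes, 1 was under an unadjusted 0.05 after training (Usp49) and 1 between the trained groups (Ssrp1), and none was between Rnf20-labelled and naive libraries. The count of 1 in 9 is close to the background of 9.97% after training and is 1 gene against a background of 5.61% between the trained groups. The groups of 5 overlapped for every one of the 9 genes in every comparison, where 1.75%, 0.659% and 0.497% of all genes had groups that did not overlap. The share of all genes with 5 of 5 libraries on 1 side of another group's median was not computed. Such counts are given for single genes as description only.

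**Figure D1:**
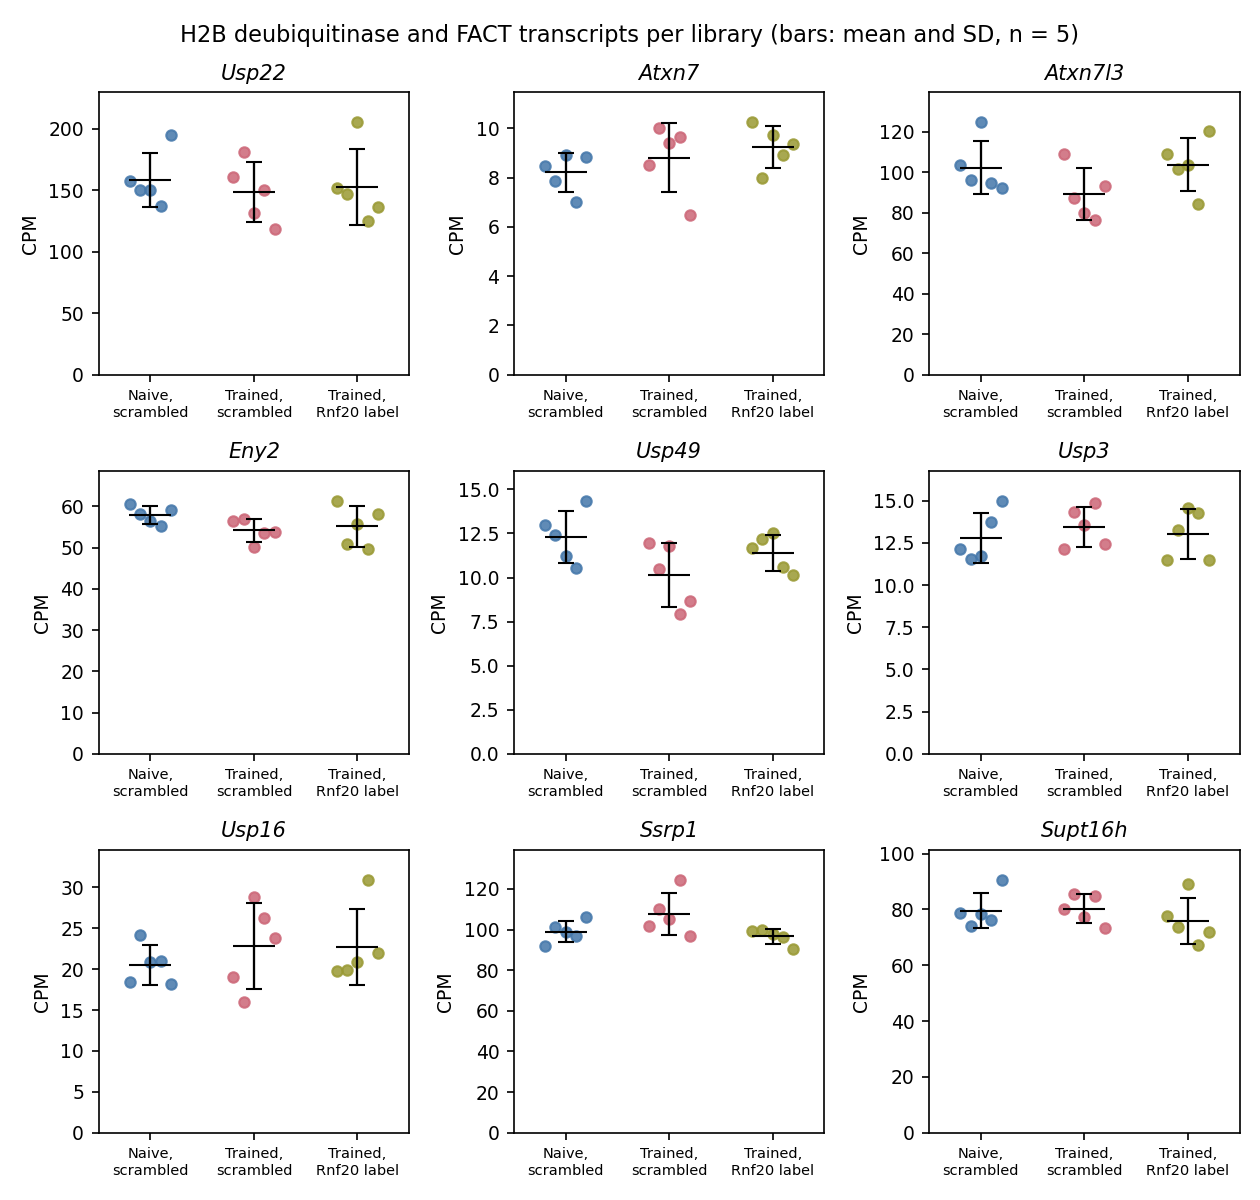
Level of each of the 9 genes in CPM (vertical axis, from 0) in every library of the naive, scrambled trained and Rnf20-labelled groups. Points are libraries, the horizontal bar is the mean and the error bar the SD (n = 5). All groups overlap for every gene.

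Usp22, the enzyme of the SAGA module, was at 157, 150.1, 150.1, 137 and 195 CPM in naive replicates 1, 2, 9, 11 and 12. In scrambled trained replicates 5, 6, 10, 15 and 16 it was at 161, 181, 131, 149.7 and 118 CPM, and in Rnf20-labelled replicates 4, 8, 14, 18 and 20 at 152, 146, 205, 125 and 136 CPM. The 3 groups covered nearly the same range, with 1 high library each in the naive and Rnf20-labelled groups. Group means were 158 ± 21.8, 148 ± 24.5 and 153 ± 30.9 CPM. The log2 fold change was -0.09 (SE 0.14, adjusted p = 0.862) after training and 0.04 (SE 0.14, adjusted p = 0.965) between the trained groups. Its 95% intervals, -23.9% to 15.7% and -16.3% to 27.1%, leave room for changes of that size either way. Leaving out the 4 libraries far out on the first component gave -0.04 and -0.09.

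Atxn7l3, the adaptor that activates Usp22, had the largest fold change of the 9 genes between the trained groups. In the order of replicates above it was at 103, 96.2, 125, 94.9 and 92.4 CPM in naive libraries, at 109, 87.3, 79.8, 76.5 and 93.5 CPM in scrambled trained libraries, and at 109, 102, 103, 84.3 and 121 CPM in Rnf20-labelled libraries. The 2 lowest libraries were scrambled trained replicates 15 and 10, and the groups overlapped. With training the means were 89.2 ± 12.9 against 102 ± 13.2 CPM (log2 fold change -0.20, SE 0.12, adjusted p = 0.593). For Rnf20-labelled against scrambled trained libraries they were 104 ± 13.2 and 89.2 ± 12.9 CPM (0.22, SE 0.12, adjusted p = 0.832). These comparisons share the scrambled trained libraries, and Rnf20-labelled against naive libraries gave 0.02 (SE 0.12). Without the 4 libraries far out on the first component the values were -0.08 after training and 0.19 between the trained groups. With the microglia marker score as a covariate they were -0.07 and 0.08, and without 3 libraries low in choroid plexus markers (scrambled trained replicates 5 and 16 and Rnf20-labelled replicate 20) they were -0.34 (unadjusted p = 0.0123, adjusted p = 0.235) and 0.30 (unadjusted p = 0.0277, adjusted p = 0.614).

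Eny2, a small subunit shared between SAGA and the mRNA export complex TREX-2, varied least of the 9 genes. Naive libraries held 60.5, 58.3, 56.5, 55.2 and 59.2 CPM, scrambled trained libraries 56.4, 57.1, 50.1, 53.4 and 53.9 CPM, and Rnf20-labelled libraries 61.2, 50.8, 55.7, 49.7 and 58.2 CPM. All 5 scrambled trained libraries lay below the naive median of 58.3 CPM, while the 2 groups overlapped between 55.2 and 57.1 CPM. The difference was -0.10 (SE 0.07, adjusted p = 0.652), with a 95% interval of -15.2% to 3.13%. Between the trained groups it was 0.03 (SE 0.07, adjusted p = 0.953), with an interval of -7.69% to 12.3%. They were -0.05 and 0.02 without the 4 libraries.

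Atxn7, the anchor of the module, was the member with the fewest reads, at 110 to 211 counts per library. It spanned 7.03 to 8.91 CPM in naive, 6.50 to 10.0 CPM in scrambled trained and 7.99 to 10.2 CPM in Rnf20-labelled libraries. Means were 8.22 ± 0.787, 8.81 ± 1.40 and 9.25 ± 0.857 CPM. The largest difference, Rnf20-labelled against naive, was 0.17 (SE 0.13, adjusted p = 1), and 4 of 5 Rnf20-labelled libraries lay above the naive median. It was also 0.17 without the 4 libraries.

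Usp49, an H2B deubiquitinase linked to splicing of nascent transcripts, had the largest fold change of the 9 genes after training. It was at 13.0, 12.4, 11.2, 10.5 and 14.3 CPM in naive libraries, at 12.0, 10.5, 11.8, 7.90 and 8.69 CPM in scrambled trained libraries and at 11.7, 12.2, 12.5, 10.6 and 10.1 CPM in Rnf20-labelled libraries. All 5 scrambled trained libraries lay below the naive median, and the 2 lowest of all 15 were replicates 15 and 16 of that group. Means were 10.2 ± 1.82 against 12.3 ± 1.49 CPM (log2 fold change -0.28, SE 0.13, unadjusted p = 0.0476, adjusted p = 0.494). The 95% interval was -31.6% to -0.225%. Lower values at an unadjusted p under 0.05 were found for 3.35% of all genes in that comparison. Rnf20-labelled libraries lay between the other groups, with 0.17 (SE 0.13, adjusted p = 0.844) against scrambled trained and -0.11 (SE 0.13, adjusted p = 1) against naive libraries. After leaving out single libraries the training value ranged from -0.34 to -0.19, and without the 4 libraries far out on the first component it was -0.24 (unadjusted p = 0.101).

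Usp3, which acts on H2A and H2B and is known from chromosome maintenance, was nearly level across the groups. Its means were 12.8 ± 1.49 CPM in naive, 13.5 ± 1.19 CPM in scrambled trained and 13.0 ± 1.49 CPM in Rnf20-labelled libraries, and all 15 libraries lay between 11.5 and 15.0 CPM. All 5 scrambled trained libraries, at least 12.14 CPM, lay above the naive median of 12.11 CPM, and the groups overlapped. The log2 fold change was 0.07 (SE 0.11, adjusted p = 0.848) after training and -0.05 (SE 0.11, adjusted p = 0.947) between the trained groups, or 0.03 and -0.11 without the 4 libraries.

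Usp16, known from the removal of H2A ubiquitin at mitosis and at developmental genes, spread more than any other of the 9 genes. It was at 18.5, 24.1, 20.8, 21.0 and 18.2 CPM in naive libraries, at 19.0, 16.0, 28.9, 26.3 and 23.8 CPM in scrambled trained libraries and at 19.8, 19.9, 20.9, 30.9 and 22.0 CPM in Rnf20-labelled libraries. The 3 highest values belonged to the 3 libraries at the high end of the first component, Rnf20-labelled replicate 18 and scrambled trained replicates 10 and 15. Means were 20.5 ± 2.40, 22.8 ± 5.26 and 22.7 ± 4.65 CPM. The fold change was 0.15 (SE 0.16, adjusted p = 0.778) after training and turned to -0.06 without the 4 libraries far out on that component. Between the trained groups it was -0.01 (SE 0.16, adjusted p = 0.995) and 0.06 without them.

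The FACT subunits Ssrp1 and Supt16h form 1 dimer, in which Supt16h contacts H2A-H2B and Ssrp1 carries the HMG box that binds DNA. Ssrp1 was at 91.9, 101, 99.0, 96.8 and 106 CPM in naive libraries, at 102, 110.1, 105, 124 and 97.0 CPM in scrambled trained libraries and at 99.2, 99.5, 97.7, 96.5 and 90.4 CPM in Rnf20-labelled libraries. The highest library was scrambled trained replicate 15, and all 5 Rnf20-labelled libraries lay below the scrambled trained median of 105 CPM, with overlap at 97.0 to 99.5 CPM. Rnf20-labelled and scrambled trained means were 96.7 ± 3.71 and 108 ± 10.4 CPM (log2 fold change -0.15, SE 0.07, unadjusted p = 0.0439, adjusted p = 0.832). The 95% interval was -19.1% to -0.331%, and 2.98% of all genes were lower at an unadjusted p under 0.05. After training, Ssrp1 was at 108 ± 10.4 against 99.0 ± 5.29 CPM (0.12, SE 0.07, adjusted p = 0.599), again with the scrambled trained libraries in common. Rnf20-labelled against naive libraries gave -0.03 (SE 0.07, adjusted p = 1). Without the 4 libraries far out on the first component the difference between the trained groups was -0.10 (unadjusted p = 0.238), and leaving out single libraries gave -0.19 to -0.09. Without the 3 libraries low in choroid plexus markers it was -0.20 (unadjusted p = 0.0236, adjusted p = 0.612). After training that fit gave 0.19 (unadjusted p = 0.0252, adjusted p = 0.275). Between the trained groups 10 of 26 alternatives had an unadjusted p under 0.05, and the smallest adjusted p was 0.384.

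Supt16h showed smaller differences than its partner after training and between the trained groups. Between Rnf20-labelled and naive libraries Supt16h differed more than Ssrp1 (-0.07, SE 0.08, against -0.03). It was at 78.6, 74.2, 78.4, 76.4 and 90.4 CPM in naive libraries, at 80.2, 85.6, 77.3, 84.9 and 73.3 CPM in scrambled trained libraries and at 77.7, 73.7, 89.1, 67.4 and 72.1 CPM in Rnf20-labelled libraries. The highest library was naive replicate 12, the 2 lowest were Rnf20-labelled replicates 18 and 20, and the groups overlapped. The fold change was 0.01 (SE 0.08, adjusted p = 0.974) after training, with a 95% interval of -10.5% to 13.6%, and -0.08 (SE 0.08, adjusted p = 0.878) between the trained groups, with an interval of -16% to 6.59%. Without the 4 far-out libraries these were 0.01 and -0.10. The log2 ratio of Supt16h to Ssrp1 counts, which does not depend on library size, was -0.32 ± 0.09 in naive, -0.42 ± 0.08 in scrambled trained and -0.35 ± 0.14 in Rnf20-labelled libraries (SD, n = 5). The lowest ratio, -0.55, belonged to scrambled trained replicate 15, the next, -0.52, to Rnf20-labelled replicate 18, and the highest, -0.13, to Rnf20-labelled replicate 14.

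**Figure D2:**
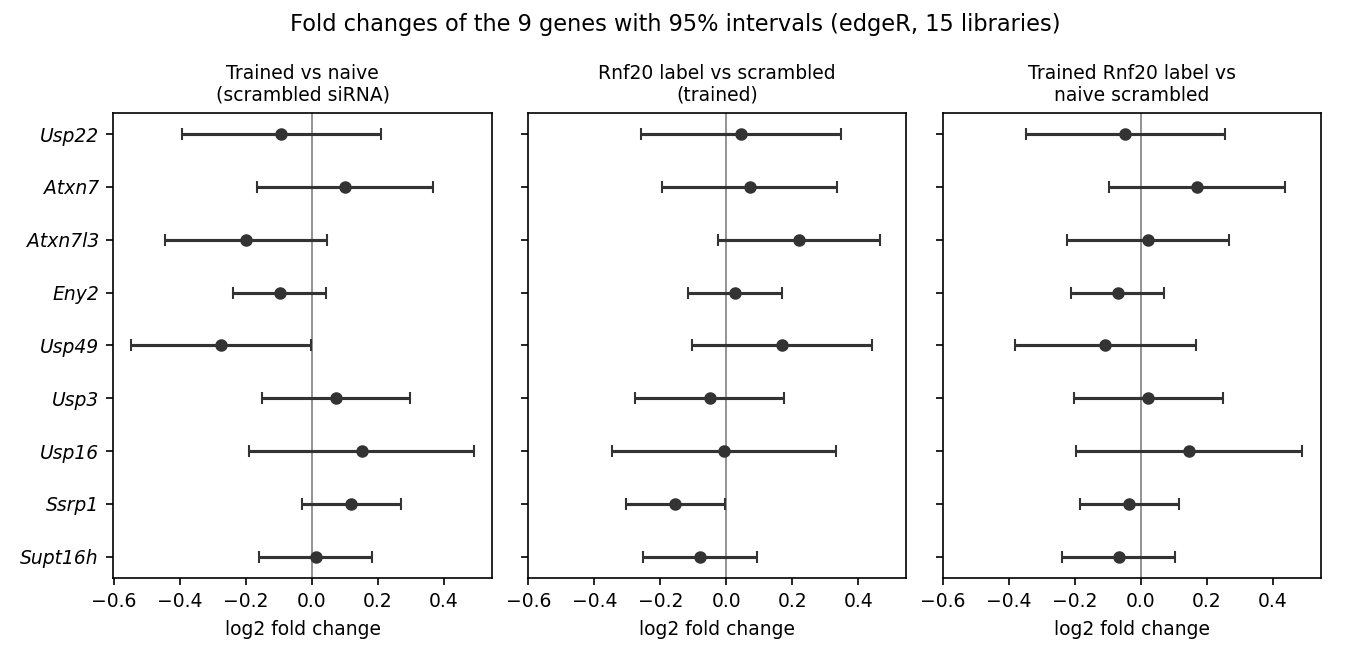
Log2 fold change (horizontal axis) of each of the 9 genes in the 3 comparisons, from edgeR on all 15 libraries; bars are 95% intervals before any adjustment for multiple tests. The interval leaves out 0 for Usp49 after training and for Ssrp1 between the trained groups, and neither gene passes after adjustment.

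As a group the 9 genes were centred near 0. After training 5 were above 0 and 4 below. Their median was 0.01 on the log2 scale, within a range of -0.28 to 0.15, against a median of -0.01 and 47.2% above 0 over all genes. Under the Rnf20 label 5 were above 0 relative to scrambled trained libraries, with a median of 0.03 and a range of -0.15 to 0.22, against 0.00 and 50.7% over all genes. Between Rnf20-labelled and naive libraries 4 were above 0, with a median of -0.03 and a range of -0.11 to 0.17, against 0.00 and 50.6%. The 4 genes of the SAGA module did not share a direction after training, where Atxn7 was at 0.10 and the other 3 at -0.09, -0.20 and -0.10. An F test among the 3 groups gave adjusted p = 0.831 for Ssrp1, the smallest of the 9, and 0 genes were called in the whole table.

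The 9 genes differed in how far libraries spread. Over the 15 libraries the coefficient of variation was 6.46% for Eny2, 8.08% for Ssrp1, 8.24% for Supt16h, 10.1% for Usp3, 12.2% for Atxn7, 14.1% for Atxn7l3, 14.5% for Usp49, 16% for Usp22 and 18.7% for Usp16. The highest library was 1.23 times the lowest for Eny2 and 1.93 times for Usp16.

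Usp22 and Supt16h followed each other closely from library to library. Pearson's r of their log2 CPM was 0.86 (permutation p = 6e-05, adjusted p = 0.00216 over 36 pairs of the 9 genes) and Spearman's rho was 0.86 (permutation p = 0.00012, adjusted p = 0.00432, n = 15). Without the 2 libraries farthest from the median of Usp22, Rnf20-labelled replicate 14 and naive replicate 12, r was 0.75, and after removal of the group means it was 0.93. Both genes were highest in those 2 libraries and in scrambled trained replicate 6. The subunits of FACT followed each other less, with r = 0.53 between Ssrp1 and Supt16h, and Usp22 and its adaptor Atxn7l3 had r = 0.13. With the first component, Usp22 and Atxn7l3 nevertheless had nearly the same r (-0.69 and -0.68). Of the 36 pairs, 1 had an adjusted p under 0.05 for r. There were 4 pairs that ran in opposite directions at an adjusted p of 0.06 for r. Of these, Atxn7l3 with Usp3 (r = -0.71, rho = -0.74) and Usp22 with Usp16 (r = -0.65, rho = -0.75) had an adjusted permutation p of 0.0317 for rho. Eny2 with Usp16 (r = -0.67, rho = -0.64, adjusted permutation p = 0.105 for rho) and Atxn7l3 with Ssrp1 (r = -0.65, rho = -0.48, adjusted permutation p = 0.23 for rho) did not pass by either measure. The relation of Eny2 and Usp16 was r = -0.35 without the 2 libraries farthest out. Over the 11 libraries left without the 4 far out on the first component, r was 0.90 for Usp22 with Supt16h, -0.72 for Atxn7l3 with Usp3, -0.79 for Usp22 with Usp16, -0.56 for Atxn7l3 with Ssrp1 and -0.21 for Eny2 with Usp16. The points of all these relations share a library, its depth and its makeup of cells. How often pairs of other tested genes are related as closely was not computed.

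Atxn7l3 was low in the libraries with high microglia markers. Against the mean log2 CPM of 12 microglia markers, r was -0.82 (permutation p = 0.00025, adjusted p = 0.0158 over 108 relations) and rho was -0.87 (permutation p = 0.00011, adjusted p = 0.0119, n = 15). It was -0.90 without the 2 libraries farthest out, Rnf20-labelled replicates 14 and 4, and -0.77 within groups. All 12 markers were detected in every library, and their summed level was 660 to 1230 CPM in naive, 751 to 1740 CPM in scrambled trained and 552 to 1670 CPM in Rnf20-labelled libraries. The median fold change of these markers was 0.53 after training, with 11 of 12 above 0, and -0.46 between the trained groups, with 1 of 12 above 0. The r of Atxn7l3 with the microglia markers was also -0.77 without the 4 libraries far out on the first component. Other measures went along with Atxn7l3 too. Its r was -0.74 with dividing-cell markers (adjusted permutation p = 0.0236) and 0.72 with pan-neuronal markers (adjusted permutation p = 0.027). With reactive glia markers and with the first component it was -0.68 (adjusted permutation p = 0.0403 each). The part of cell makeup in the Atxn7l3 values was not tested. The share of other tested genes that follow these measures as closely was not computed.

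Eny2, Usp22 and Usp16 also varied with marker levels or with the first component. Eny2 was lower where 12 tested reactive glia markers were higher (r = -0.74, permutation p = 0.00154, adjusted p = 0.0208, rho = -0.74) and higher with 10 pan-neuronal markers (r = 0.77, permutation p = 0.00081, adjusted p = 0.0158, rho = 0.72). Without the 2 libraries farthest out these were -0.90 and 0.53. Eny2 also had r = -0.67 with microglia markers and -0.77 with the first component (adjusted permutation p = 0.0484 and 0.0158). The summed level of the reactive glia markers was 3140 to 4740 CPM in naive, 4420 to 9720 CPM in scrambled trained and 2350 to 8540 CPM in Rnf20-labelled libraries, with none at 0. Usp22 was lower toward the high end of the first component (r = -0.69, permutation p = 0.00445, adjusted p = 0.04, rho = -0.81), and r was -0.61 without the 2 libraries farthest out. With pan-neuronal and reactive glia markers the r of Usp22 was 0.62 and -0.64 (adjusted permutation p = 0.0699 and 0.0633). Usp16 ran the other way. It was higher where 6 CA1 neuron markers were lower (r = -0.80, permutation p = 0.00036, adjusted p = 0.0158, rho = -0.73), with r = -0.67 without scrambled trained replicates 10 and 6. Usp16 was related about as closely to astrocyte and to pan-neuronal markers (r = -0.78 and adjusted permutation p = 0.0158 each). With the first component its r was 0.76 (adjusted permutation p = 0.0177), so the relation was not particular to CA1 neurons. Without the 4 libraries far out on the first component r was -0.79 and 0.69 for Eny2 with reactive glia and pan-neuronal markers, -0.61 for Usp22 with the component and -0.60 for Usp16 with CA1 markers. Of the 108 relations of a gene with a marker list or a library measure, 15 had an adjusted p under 0.05 for r. Only 2 had it for both r and rho, those of Atxn7l3 with microglia markers and of Usp22 with the first component. The share of other tested genes related as closely to a marker list or to the first component was not computed. Whether these relations are particular to the genes followed here was therefore not tested. The relation of Ssrp1 with the mitochondrial share (r = -0.74) rested on scrambled trained replicates 15 and 6, since r was -0.23 without them.

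**Figure D3:**
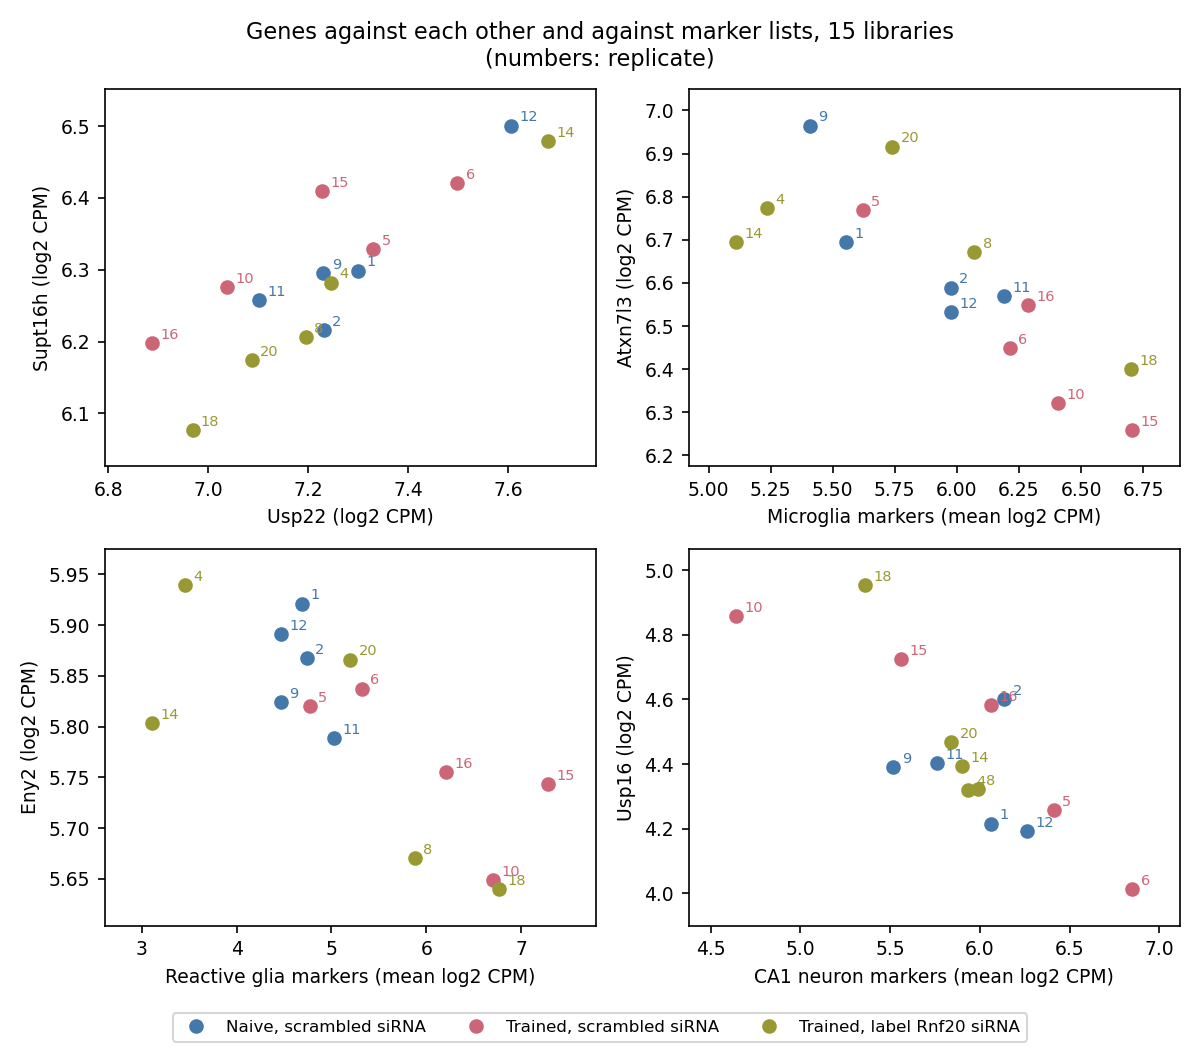
Levels in the 15 libraries (log2 CPM, prior count 2), coloured by group and numbered by replicate: Supt16h against Usp22, Atxn7l3 against the mean of 12 microglia markers, Eny2 against the mean of 12 reactive glia markers and Usp16 against the mean of 6 CA1 neuron markers. Supt16h climbs with Usp22 (r = 0.86), the other panels slope downward (r = -0.82, -0.74 and -0.80), and libraries of all groups lie along each slope.

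The genes whose log2 CPM was most like each member over the 15 libraries were found among all other tested genes. The 3 nearest to Usp22 were Galnt17, Tcaf1 and G3bp2 (r = 0.968, 0.967 and 0.963), and the 3 nearest to Supt16h were Hspa4, Uso1 and Ssb (0.956, 0.952 and 0.945). Ssrp1 was nearest to Xrn2, Etf1 and Ftsj3 (0.939, 0.871 and 0.861) and Atxn7l3 to Zfr2, Cntnap1 and Ppfia3 (0.941, 0.919 and 0.917). Eny2 was nearest to Fam184b (0.910), Usp3 to Crlf3 (0.891), Usp16 to Chrac1 (0.888), Atxn7 to Vps13a (0.868) and Usp49 to Dennd1a (0.835). None of these nearest genes was another of the 9. They are maxima over the whole table and carry no test.

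The genes around these 9 in the same machinery gave 0 calls in every list and comparison. Of 5 relatives of the SAGA module, 1 was above 0 after training (median -0.09) and 5 were above 0 between the trained groups (0.15). Usp27x, a close relative of Usp22 that can use the same adaptors and is named here for that kinship, was at 14.9 ± 0.875, 14.4 ± 3.12 and 16.8 ± 4.05 CPM. Usp51, the other such relative, had 3 to 23 reads per library. It had the smallest p of its list between Rnf20-labelled and naive libraries, at 0.871 ± 0.513 against 0.418 ± 0.127 CPM (1.03, SE 0.50, adjusted p = 1). How reads shared between Usp22 and these relatives were counted is not given in the sources used here.

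In the rest of SAGA, the coactivator that also carries the acetyltransferase Kat2a or Kat2b, 13 of 17 genes were above 0 after training, with a median of 0.06, and 2 were higher at an unadjusted p under 0.05, where 6.62% of all genes were. Taf12, a histone-fold subunit shared with TFIID, was at 23.1 ± 1.71 against 19.5 ± 1.47 CPM (0.24, SE 0.08, adjusted p = 0.391), and all 5 trained libraries lay above the naive median. Taf12 was at 0.20 without the 4 libraries far out on the first component (unadjusted p = 0.0555, against 0.00972 with them). The other was Sf3b3, a splicing factor subunit that is also part of SAGA, named here after its values were seen (0.24, SE 0.08, adjusted p = 0.399, and also 0.24 without the 4 libraries). In the trained groups 6 of 17 were above 0 in Rnf20-labelled libraries (median -0.03), and Sf3b3 was the 1 gene under an unadjusted 0.05 (-0.18, SE 0.08, adjusted p = 0.832, and -0.22 without the 4). Of 4 tested TREX-2 partners of Eny2, 2 were above 0 after training and 1 between the trained groups, and the smallest p over the comparisons was that of Sem1 after training (0.11, SE 0.10, adjusted p = 0.735).

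Other deubiquitinases of H2A and H2B were centred on 0 as well, with 7 of 18 above 0 after training (median -0.03) and 11 of 18 between the trained groups (0.04). Usp36, a nucleolar enzyme that acts on H2B, was at 33.5 ± 3.12 against 29.6 ± 2.55 CPM between the trained groups (0.18, SE 0.08, unadjusted p = 0.0493, adjusted p = 0.832), where 2.63% of all genes were higher at an unadjusted p under 0.05. Usp36 was at 0.17 without the 4 libraries (unadjusted p = 0.115). Among 10 writers of the mark and PAF1 subunits, none was under an unadjusted 0.05 in any comparison. Ube2a, the ubiquitin-conjugating enzyme for H2B, came nearest between the trained groups (-0.08, SE 0.06, adjusted p = 0.843), and Rnf40, given as the partner of Rnf20, was at 42.8 ± 2.65, 42.2 ± 1.83 and 42.5 ± 2.40 CPM. Elongation factors of RNA polymerase II had 14 of 24 above 0 after training (median 0.01) and 15 of 24 between the trained groups (0.02). At an unadjusted p under 0.05, 1 of 24 was higher after training, against 6.62% of all genes, and between the trained groups 1 was higher and 1 lower, against 2.63% and 2.98%. The chromatin remodeller Chd2 was at 80.9 ± 5.30 against 71.6 ± 2.96 CPM between the trained groups (0.17, SE 0.06, adjusted p = 0.832), with all 5 Rnf20-labelled libraries above the scrambled trained median, and 0.19 without the 4 libraries. The lower one was Tcea1, a transcript cleavage factor (-0.14, SE 0.06, adjusted p = 0.832, and -0.20 without the 4), and the higher one after training was Nelfa, a pausing factor (0.19, SE 0.07, adjusted p = 0.423, and 0.19 without the 4), both named after their values were seen.

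Other histone chaperones included Asf1b, the partner gene farthest from 0 (1.69 after training, SE 0.51, adjusted p = 0.379, and -1.46 between the trained groups, SE 0.51). It was at means of 0.999, 3.24 and 1.16 CPM in the naive, scrambled trained and Rnf20-labelled groups. Of 24 tested, 4 were higher after training at an unadjusted p under 0.05 (against 6.62% of all genes). Comparing the trained groups, 5 were lower (against 2.98%) and 1 was higher (against 2.63%). The medians were 0.00 after training and -0.08 between the trained groups. Chaf1a, the large subunit of CAF-1, which places histones behind the replication fork, was at 15.1, 17.8, 18.8, 17.9 and 16.4 CPM in scrambled trained libraries and at 14.7, 13.4, 10.8, 15.0 and 12.2 CPM in Rnf20-labelled libraries. Every Rnf20-labelled library lay below every scrambled trained one, as for 0.262% of all genes in that direction. The fold change was -0.38 (SE 0.11, unadjusted p = 0.00262, adjusted p = 0.832), and -0.29 (unadjusted p = 0.0365) without the 4 libraries far out on the first component. After training it was 0.27 (SE 0.10, unadjusted p = 0.0203, adjusted p = 0.423), or 0.21 (unadjusted p = 0.078) without the 4, against the naive level of 14.3 ± 1.40 CPM.

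The other 4 that were lower between the trained groups, named after their values were seen, were Asf1b, Npm1, Set and Rbbp4 (-1.46, -0.23, -0.16 and -0.20, adjusted p = 0.832 each). In the fit without the 4 libraries these were -1.66, -0.18, -0.19 and -0.22, and Npm1 was no longer under 0.05 (unadjusted p = 0.11 by edgeR). The 1 that was higher was Ubn2 (0.28, SE 0.13), at 0.31 (unadjusted p = 0.0625) without them. The 4 that were higher after training, again named after their values were seen, were Chaf1a, Asf1b, Npm1 and Anp32b, and without the 4 libraries Asf1b (1.36, unadjusted p = 0.0118) was the only one of these under 0.05. Dividing-cell markers moved beside these genes: all 10 were above 0 after training (median 1.34) and none was between the trained groups (median -1.01), with 0 called. Their summed level was 41.6 to 77.4 CPM in naive, 53.8 to 235 CPM in scrambled trained and 33.2 to 177 CPM in Rnf20-labelled libraries, with no marker at 0. Their part in the chaperone values was not tested.

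**Figure D4:**
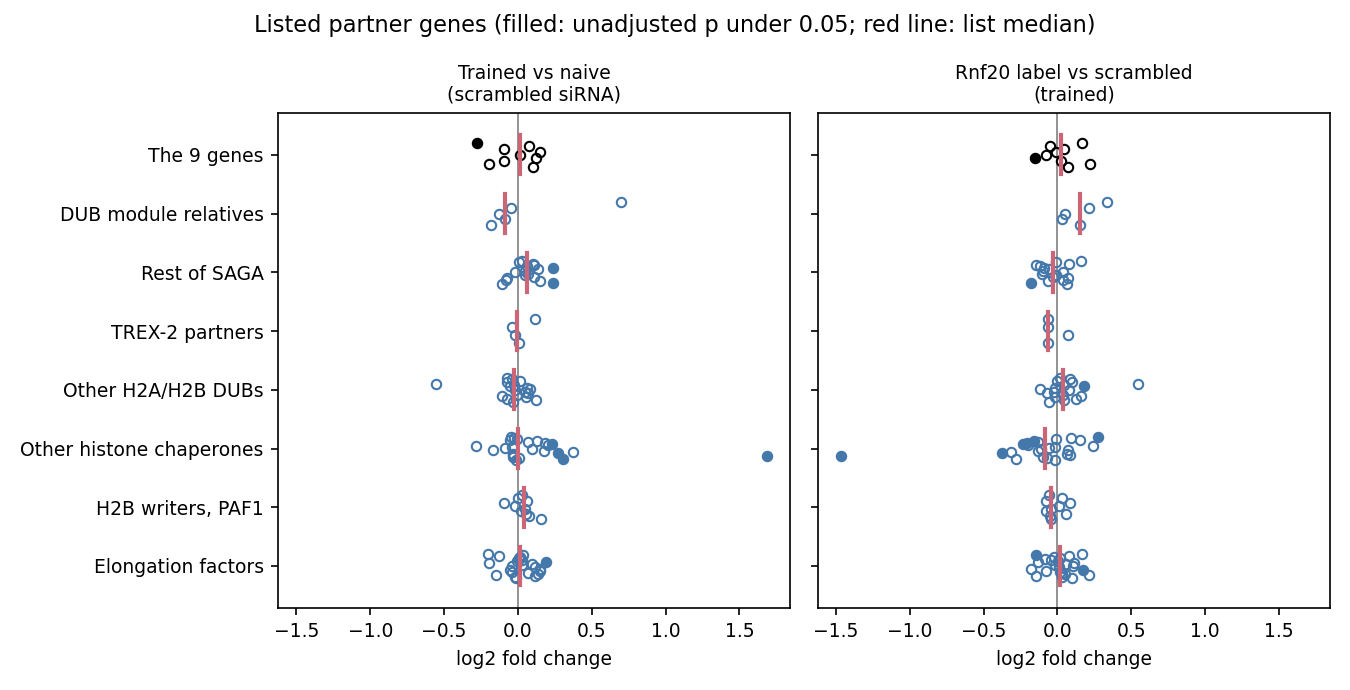
Log2 fold change (horizontal axis) of the 9 genes and of each tested gene in 7 lists of partner genes, after training under scrambled siRNA (left) and between the trained groups (right). Filled points have an unadjusted p under 0.05, the red line is the list's median, and 0 genes passed after adjustment. The points farthest from 0 belong to Asf1b among the histone chaperones.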

How the data were processed

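Per the submitters' processing notes, the authors used Trim Galore, FastQC, featureCounts 2.0.1, DESeq2 and Rnor_6.0. The sources used here do not name the aligner, annotation release or strand setting. Per the labels' protocols, libraries were stranded poly(A) with 14 PCR cycles. The deposited table of counts was used for all tests. The authors' normalised signal table equalled those counts over DESeq2 size factors (0 differences at a relative tolerance of 1e-06) and was not used further.

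Counts were fitted in edgeR 4.0.16 (R 4.3.3): filterByExpr (14880 of 22314 genes, 99.9% of counts), TMM scaling and the robust quasi-likelihood F test on 15 libraries with 12 residual degrees of freedom, Benjamini-Hochberg adjusted over all genes at 0.05. The fit was tested on simulated data. SEs and 95% intervals come from that fit. CPM values use TMM-scaled totals, and correlations used 100000 permutations of log2 CPM (prior count 2). Upstream windows came from RefSeq.

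Alternatives were DESeq2 1.42.0, limma-voom (limma 3.58.1), other scalings and filters, 2-group fits, covariates (1 surrogate variable from sva 3.50.0, or the microglia score) and left-out libraries. Named genes were the 9, Rnf20, any called gene of a partner list or else its gene of smallest p, and the 3 genes most like each member. Usp27x, Rnf40 and genes said to be named after their values were seen lie outside that rule. The genes, lists and alternatives were chosen with earlier results of these data known. No 2 libraries of a group agreed within counting noise.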

Additional observations from a re-analysis of the deposited data

Results flagged for a closer look

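In 2 of 27 sets of 5 libraries, 1 library stood far from the other 4. Usp16 was at 30.86 CPM in Rnf20-labelled replicate 18, with a gap to the nearest library of 0.801 of the group's range, and Supt16h was at 90.43 CPM in naive replicate 12, with a gap of 0.729. The limit for 5 libraries is 0.71, and chance passes it in about 1 in 20 sets. Rnf20-labelled replicate 18 lay at 45.0 on the first component, and naive replicate 12 also had the highest naive level of Usp22, at 195 CPM.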

How the results depend on the processing

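No paired analysis was possible because the groups share no replicate numbers. Of 702 fold changes of the 9 genes over 26 alternatives, 0 crossed the threshold and 45 turned direction, the largest of them 0.218 in size; the cause was not tested. DESeq2 called 58, 1 and 1 genes in the 3 comparisons against 0 by edgeR. Leaving out single libraries gave 0 to 1 called genes between Rnf20-labelled and naive libraries, 1 without naive replicate 9. After training, the turned values were 0.057 for Usp22 and -0.04 for Usp16 under a fit that adds 1 surrogate variable, 0.014 and -0.007 with the microglia score, and -0.055 for Usp16 without the 4 libraries far out on the first component. Between the trained groups they were -0.147 for Usp22, -0.024 for Eny2 and 0.218 for Usp16 with the surrogate variable. With the microglia score they were -0.088, -0.039 and 0.154 in that order and 0.02 for Usp3. Without the 4 libraries they were -0.086 for Usp22 and 0.058 for Usp16, and without the 3 libraries low in choroid plexus markers -0.068 for Atxn7. Between Rnf20-labelled and naive libraries they were 0.00 with the surrogate variable and -0.038 without the choroid-low libraries for Atxn7l3, and -0.083 for Usp3 without the 4. Leaving out single libraries turned Usp22 (-0.161 to 0.001) and Supt16h (-0.004 to 0.069) after training. Between the trained groups it turned Usp22 (-0.084 to 0.125), Atxn7 (-0.021 to 0.119), Eny2 (-0.014 to 0.056) and Usp16 (-0.153 to 0.097). Between Rnf20-labelled and naive libraries it turned Usp22 (-0.176 to 0.049), Atxn7l3 (-0.023 to 0.103), Usp3 (-0.021 to 0.093) and Ssrp1 (-0.061 to 0.004). None of 618 group means and ratios moved by 1 SD. A left-out library can hardly move the mean of so few values that far, so the count says little about stability. Atxn7 had the fewest reads of the 9, at 110 to 211 counts per library. Relations between libraries without the 4 libraries were added after seeing the data.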
